A study of Homo sapiens with 6 samples.

Results

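RAB small GTPases form a large family of switches of membrane traffic, and their transcripts were compared between SNU-449 liver cancer cells carrying wild-type or gatekeeper-mutant Yes kinase. The members are the protein-coding genes whose symbol is RAB followed by a number and at most 1 letter. This gave 63 genes among the 58219 gene identifiers counted, of which 50 had enough reads to be tested. SNU-449 is an established hepatocellular carcinoma line. In the first group it stably expressed Yes WT (3 libraries) and in the second group Yes T348I (3 libraries), and all 6 libraries were from cells given dasatinib at 100 nM. Dasatinib blocks ABL and SRC family kinases, Yes among them, and T348I alters the gatekeeper position of the drug-binding pocket. The labels do not give the promoter behind the introduced kinase or say whether a line is a clone. Nor do they say whether the 3 libraries of a group were separate cultures, so every p-value below reflects library-to-library spread, possibly technical spread alone. No untreated library was analysed here.

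A RAB protein cycles between a GDP-bound form in the cytosol, held by GDP dissociation inhibitors, and a GTP-bound form on a membrane. Exchange factors switch it on, GTPase-activating proteins switch it off, and the active form recruits effectors such as tethers, motors and sorting complexes. Each member marks its own set of membranes, so the family is usually read by route: from the endoplasmic reticulum through the Golgi, to secretory granules, inwards through early and late endosomes, back through recycling endosomes, and to the polarised surfaces of epithelial cells.

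Polyadenylated RNA was counted by strand, with 14360137 to 19608763 gene counts per library. Levels are in CPM, a gene's reads scaled to library size. YES1 itself went from 364 ± 6.17 to 409 ± 26.2 CPM (SD, n = 3 each), and it rose by 0.17 on the log2 scale (SE 0.04, edgeR adjusted p = 9.94e-05). Its reads do not separate the native from the introduced gene and do not show the mutation. Of 8 hepatocyte markers 7 were under 1 CPM, albumin among them, with summed levels of 3.41 to 3.60 CPM in Yes WT and 2.13 to 2.97 CPM in Yes T348I, so the defining markers of the labelled tissue were nearly absent. Leukocyte markers summed to 2.49 to 3.08 CPM in Yes WT and 0.635 to 1.38 CPM in Yes T348I, and endothelial markers to 1.14 to 1.53 CPM and 0.480 to 0.564 CPM. Of these lists CD14 and PECAM1 were tested, and they fell by 1.66 and 2.0 on the log2 scale (edgeR adjusted p = 5.09e-06 and 5.09e-04), while CD3E, TEK and CLDN5 were at 0. Of 7 stellate cell and fibroblast markers 3 were under 1 CPM, while COL1A1 and RGS5 were above 100 CPM in both groups, which gave summed levels of 251 to 274 CPM in Yes WT and 277 to 291 CPM in Yes T348I. Reads on no annotated exon made up 7.40% to 7.87% of uniquely mapped reads in Yes WT and 6.37% to 6.86% in Yes T348I. The part of these marker and library differences in the results was not tested.

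Members of the RAB family moved in both directions while the summed level of the family did not separate the groups. Summed over the 63 genes, the level per kilobase of annotated exon was 859.7, 883 and 881 CPM per kb in Yes WT and 869, 864 and 866 in Yes T348I. The range of Yes T348I lies within that of Yes WT. In these bulk libraries fewer cells with a transcript and less of it per cell cannot be told apart. Among the 50 RAB genes in the test, edgeR's adjusted p was under 0.05 for 13 that rose and 19 that fell in Yes T348I. In all genes tested 55.3% were called, 28.0% higher and 27.3% lower. The RAB genes thus held a share of rises close to that background and a larger share of falls, and the median log2 fold change was -0.02 against -0.01 over all 14723 genes tested. In 35 of the 50 the libraries of the groups did not overlap, where the share over all genes was 59.5%.

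The called changes of at least 1.5-fold were all downwards. RAB17, RAB43, RAB3D, RAB4B, RAB31, RAB24 and RAB40B fell by that much, 7 of 50 genes, and none rose by that much (background 9.19% lower, 3.55% higher and 12.7% in either direction). No tested RAB gene had an edgeR estimate of 1.5-fold or more upwards whatever its p, the largest being 0.53 on the log2 scale, and DESeq2 and limma-voom also gave 0. In 6 of the 14 alternatives, however, 1 RAB gene was called higher by at least 1.5-fold: RAB6C with no low-count filter and without Yes WT replicate 3 or Yes T348I replicate 1, RAB8A with unstranded counts, and RAB33A without Yes WT replicate 2 or Yes T348I replicate 2. Of the 7, RAB17, RAB43, RAB4B and RAB24 had means under 5 CPM. Among all genes at those levels 20.3% fell at least 1.5-fold, so the count of 4 among 12 such RAB genes has to be read against that share. Of the 26 RAB genes at 50 CPM or more, 7 rose and 8 fell, and RAB31 was the only one past 1.5-fold. Among all genes at those levels 73.1% were called and 6.5% were past 1.5-fold, so the 15 calls are a smaller share than the background at this level. At lower levels the share was larger than the background. At 5 to 50 CPM 10 of 12 RAB genes were called, 5 higher and 5 lower, against 56.8% of all genes. Under 5 CPM 7 of 12 were called, 1 higher and 6 lower, against 31.4%.

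**Figure D1:**
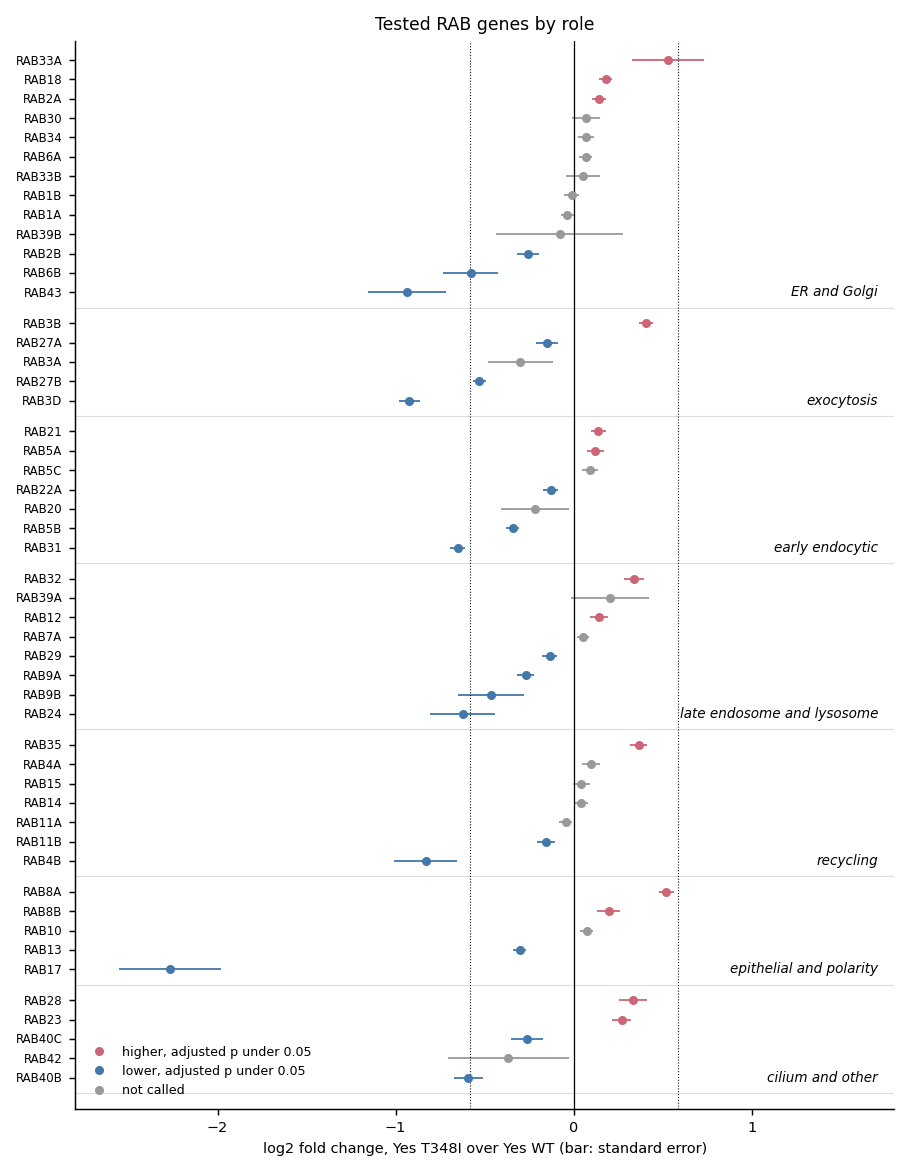
Log2 fold change of Yes T348I over Yes WT (horizontal axis) for the 50 tested RAB genes, grouped by role. Points are edgeR estimates with standard error bars, coloured by call, and dotted lines mark 1.5-fold; RAB17 at -2.27 lies far to the left, and the 7 genes left of the lower dotted line have no counterpart on the right.

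By level per kilobase the family was led by RAB7A at 88.4 ± 2.10 CPM per kb (SD over 6 libraries), which did not overlap the next gene in any library. RAB13, RAB10 and RAB1B followed at 64.9, 63.4 and 62.3 CPM per kb over the 6 libraries, and their order depended on the group. In Yes WT RAB13 was at 71.8 ± 0.615 CPM per kb, above RAB10 at 61.8 ± 2.26 and RAB1B at 62.7 ± 2.41 in every library (SD, n = 3 each). In Yes T348I RAB13 was at 58.1 ± 2.13 CPM per kb and below RAB10 at 65.01 ± 2.17 in every library, while its range overlapped that of RAB1B at 61.99 ± 3.13 (SD, n = 3 each). RAB10 and RAB1B overlapped in both groups. RAB1A (41.8) and RAB14 (35.3) came next, each below the preceding gene in every library. These 6 genes, of the late endosome, the tight junction route, the plasma membrane route, the Golgi and the recycling route, made up 40.9% of the family's summed level per kb. Exon lengths are those of all annotated isoforms together, so the level per kb of a gene with long annotated exons, such as RAB21, may be understated.

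**Figure D2:**
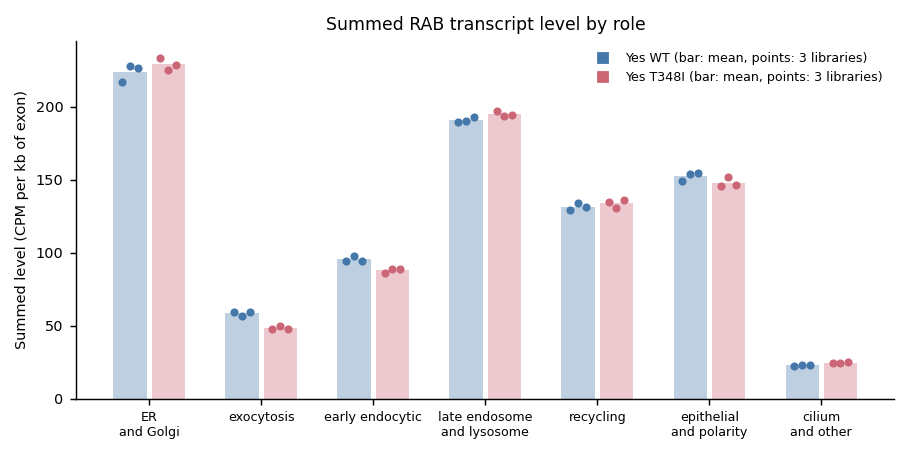
Summed level of the RAB genes of each role (vertical axis, CPM per kb of exon) in Yes WT and Yes T348I; bars are means and points the 3 libraries of a group. In this unit the groups of libraries are apart for the exocytosis, early endocytic, late endosome and cilium sets, with exocytosis lowest relative to Yes WT.

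Summed per kb by role, the exocytosis genes had the ratio farthest from equality. Their level was 59.3, 56.8 and 59.04 CPM per kb in Yes WT and 47.9, 49.99 and 47.8 in Yes T348I, a ratio of 0.832. The early endocytic genes were at 94.1, 97.5 and 94.6 CPM per kb in Yes WT and 86.3, 88.8 and 88.8 in Yes T348I. Both sets were lower in all 3 Yes T348I libraries than in any Yes WT library. The late endosome and lysosome genes were slightly higher, at 189, 190.3 and 193 CPM per kb in Yes WT and 197, 193 and 194 in Yes T348I, without overlap. Sums per kb over the Golgi, recycling and epithelial sets overlapped between the groups. Which sets separate depends on the division by exon length. In plain CPM the late endosome and lysosome set overlapped, at 475, 479 and 484 in Yes WT and 483, 480 and 477 in Yes T348I. The cilium set overlapped too. The Golgi set was apart in CPM, at 827, 861 and 865 in Yes WT and 895, 878 and 882 in Yes T348I. The exocytosis and early endocytic sets were lower in both units. In CPM, however, the exocytosis groups nearly met, at 467, 439.3 and 461 in Yes WT and 416, 438.2 and 420 in Yes T348I. The early endocytic set was at 527, 540 and 533 CPM in Yes WT and 473, 488 and 491 in Yes T348I. The place of exocytosis as farthest from equality thus holds for the sums per kb only. These sums were not tested.

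Of the RABs of the endoplasmic reticulum and Golgi, RAB1B and RAB1A, the most abundant per kb, did not pass the test. In CPM RAB18 and RAB2A, both called higher, were more abundant, with means of 166 and 156 against 125 for RAB1B and 138 for RAB1A. Among 18 genes 13 were tested, of which 3 rose and 3 fell (median log2 fold change 0.05). This count and those of the other roles below stand against 28.0% of all genes called higher and 27.3% lower. RAB1B, which carries cargo from the endoplasmic reticulum to the Golgi, was at 122, 131 and 125 CPM in Yes WT and 131, 119 and 122 CPM in Yes T348I. The groups overlap, and the estimate was -0.01 (SE 0.04, edgeR adjusted p = 0.82). Its close relative RAB1A and the Golgi RAB6A also did not pass. With unstranded counts, however, RAB1B was called lower (-0.14, edgeR adjusted p = 0.031) and RAB6A higher (0.11, edgeR adjusted p = 0.015). RAB18, a RAB of the endoplasmic reticulum and lipid droplets (ENSG00000099246.16, GRCh38 chromosome 10, 27504174 to 27542237), was at 152, 158 and 156 CPM in Yes WT and 179, 177 and 172 CPM in Yes T348I. All Yes T348I libraries were above all Yes WT libraries, and RAB18 rose by 0.18 on the log2 scale (SE 0.04, edgeR adjusted p = 3.29e-05). RAB2A, which acts between the endoplasmic reticulum and the Golgi, rose by 0.14 on the log2 scale while its paralog RAB2B fell by 0.26.

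The scarce Golgi members held the larger changes. RAB43 (ENSG00000172780.16, GRCh38 chromosome 3, 129087569 to 129122801), a RAB of Golgi transport, was at 2.44, 2.84 and 3.34 CPM in Yes WT and 1.18, 1.51 and 1.90 CPM in Yes T348I. The groups do not overlap, and RAB43 fell by 0.93 on the log2 scale (SE 0.22, edgeR adjusted p = 3.81e-04). However, 79.3% of its exon bases also belong to the readthrough gene ISY1-RAB43 on the same strand in GENCODE release 29. Reads that fit more than 1 gene stand on a line of their own in the files and in no gene's count, so this level is uncertain. RAB6B, a neuronal relative of RAB6A, fell by 0.58 (SE 0.15, edgeR adjusted p = 0.0015). RAB33A was at 1.71, 2.15 and 2.07 CPM in Yes WT and 2.77, 2.40 and 3.38 CPM in Yes T348I, a rise of 0.53 (SE 0.20, edgeR adjusted p = 0.025). This was the largest rise among the tested RAB genes, on 28 to 54 reads per library, and its call was lost without Yes WT replicate 1 or Yes T348I replicate 3, with DESeq2 and with unstranded counts.

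RABs of regulated exocytosis, which dock secretory granules at the plasma membrane, changed in opposite directions. Of 9 genes 5 were tested, and 1 rose and 3 fell (median log2 fold change -0.30). RAB3D (ENSG00000105514.7, GRCh38 chromosome 19, 11322046 to 11346270), a RAB of secretory granules, was at 46.99, 46.1 and 45.9 CPM in Yes WT and 25.9, 23.5 and 23.5 CPM in Yes T348I. Its Yes T348I libraries lay near 0.527 of the Yes WT level with no overlap, and it fell by 0.92 on the log2 scale (SE 0.06, edgeR adjusted p = 2.66e-17). Its paralog RAB3B (ENSG00000169213.6, GRCh38 chromosome 1, 51907956 to 51990764) was at 184, 164 and 174 CPM in Yes WT and 225, 237 and 230.5 CPM in Yes T348I. Here every Yes T348I library was above every Yes WT library, and RAB3B rose by 0.41 on the log2 scale (SE 0.04, edgeR adjusted p = 1.76e-12). RAB3A was at about 3 CPM and did not pass.

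RAB27B (ENSG00000041353.9, GRCh38 chromosome 18, 54717860 to 54895516), which acts in granule and exosome release, was the most abundant exocytosis member per kb. It was at 202, 194 and 205 CPM in Yes WT and 136, 145 and 136 CPM in Yes T348I. The groups are well apart, and RAB27B fell by 0.53 on the log2 scale (SE 0.04, edgeR adjusted p = 4.33e-16). Its paralog RAB27A, known for melanosome and lytic granule transport, went from 30.9 ± 1.55 to 27.9 ± 1.41 CPM (SD, n = 3 each). With a log2 fold change of -0.15 it passed narrowly (edgeR adjusted p = 0.038), its groups overlap, and 6 of 14 alternatives ended the call. MLPH, which encodes the RAB27 effector melanophilin, was at 288, 287 and 286 CPM in Yes WT and 216, 207 and 199.7 CPM in Yes T348I and fell by 0.47 on the log2 scale (SE 0.03, edgeR adjusted p = 2.10e-15).

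**Figure D3:**
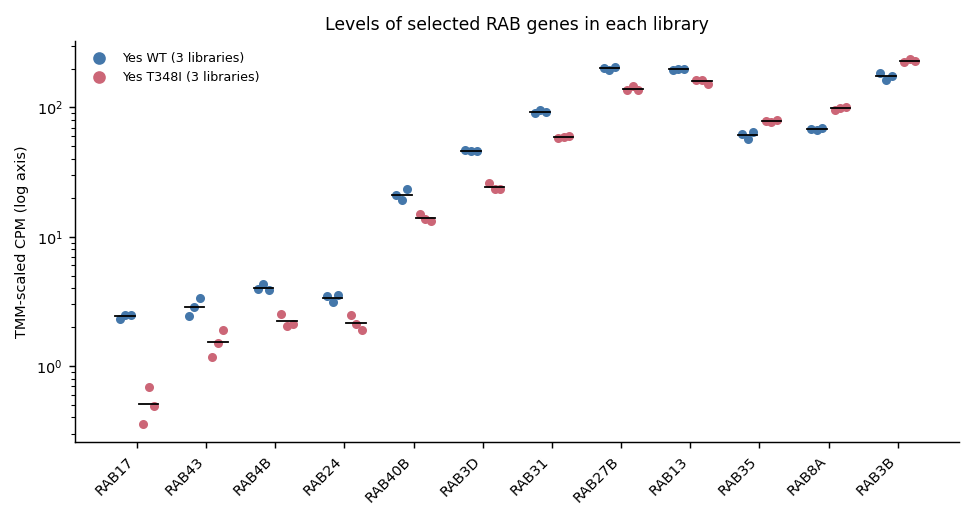
TMM-scaled CPM (log axis) of 12 RAB genes in each of the 3 Yes WT and 3 Yes T348I libraries; horizontal marks are group means. RAB17 through RAB13 are lower and RAB35, RAB8A and RAB3B higher in every Yes T348I library.

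Among the early endocytic RABs, which control uptake and fusion of early endosomes, all 7 genes were tested, and 2 rose and 3 fell (median log2 fold change -0.13). RAB31 (ENSG00000168461.12, GRCh38 chromosome 18, 9708165 to 9862551), which works between the trans-Golgi network and endosomes, was at 90.7, 94.95 and 92.02 CPM in Yes WT and 57.7, 59.3 and 60.00 CPM in Yes T348I. There is no overlap, and RAB31 fell by 0.65 on the log2 scale (SE 0.04, edgeR adjusted p = 1.32e-16). RAB5, the master RAB of early endosomes, has 3 genes with 3 different calls, although the estimates of RAB5A and RAB5C were close. RAB5B was at 131, 128 and 132 CPM in Yes WT and 101, 103 and 105 CPM in Yes T348I and fell by 0.34 on the log2 scale (SE 0.04, edgeR adjusted p = 3.02e-10). RAB5A, the most abundant of the set per kb, was at 82.1, 89.7 and 81.2 CPM in Yes WT and 86.96, 97.9 and 90.9 CPM in Yes T348I. Its groups overlap at 87.0 and 89.7 CPM, and its rise of 0.12 (SE 0.05, edgeR adjusted p = 0.022) lost its call in 6 of 14 alternatives. RAB5C did not pass (log2 fold change 0.09, SE 0.05, edgeR adjusted p = 0.097). It shares 28.8% of its exon bases with another gene of the same strand, so its level is uncertain. The share of RAB5A in the summed level per kb of RAB5A and RAB5C overlapped between the groups (exact permutation test p = 0.70). The integrin-sorting RAB21 rose by 0.14 and RAB22A fell by 0.13 on the log2 scale. The call of RAB21 was lost without Yes WT replicate 1, and that of RAB22A without Yes WT replicate 1 or Yes T348I replicate 1 and with no low-count filter.

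Late endosomal and lysosomal RABs were led by RAB7A, which controls fusion with lysosomes and stayed near its Yes WT level. RAB7A was at 229.8, 239.9 and 238 CPM in Yes WT and 246, 243 and 244 CPM in Yes T348I. Its log2 fold change was 0.05 (SE 0.03, edgeR adjusted p = 0.20). The libraries do not overlap, but the difference is small and did not pass. Of 10 genes 8 were tested, with 2 higher and 4 lower (median log2 fold change -0.04). RAB32, a RAB of melanosomes and mitochondria (ENSG00000118508.4, GRCh38 chromosome 6, 146543693 to 146554965), was at 33.7, 34.1 and 34.7 CPM in Yes WT and 45.4, 41.1 and 42.7 CPM in Yes T348I. It rose by 0.34 on the log2 scale (SE 0.06, edgeR adjusted p = 1.55e-06), with no overlap. RAB9A, which returns mannose 6-phosphate receptors from endosomes to the Golgi, went from 64.8 ± 2.36 to 53.8 ± 1.89 CPM (SD, n = 3 each) and fell by 0.27 on the log2 scale (SE 0.05, edgeR adjusted p = 5.70e-06). Its rare paralog RAB9B fell by 0.46, a call lost in 6 of 14 alternatives. RAB29, which recruits the kinase LRRK2 to membranes, fell by 0.13, and RAB12 rose by 0.14. The call of RAB29 was lost with no low-count filter and without Yes T348I replicate 3. RAB12 lost its call with DESeq2, when scaled by library size alone or by upper quartiles, and without Yes WT replicate 3. RAB24, a RAB linked to autophagy (ENSG00000169228.13, GRCh38 chromosome 5, 177301198 to 177303744), was at 3.48, 3.11 and 3.54 CPM in Yes WT and 2.46, 2.13 and 1.90 CPM in Yes T348I and fell by 0.62 on the log2 scale (SE 0.18, edgeR adjusted p = 0.0039). RAB24 shares 44.8% of its exon bases with MXD3 on the same strand, so its level is uncertain.

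Recycling RABs, which return cargo from endosomes to the surface, had 7 tested genes, of which 1 rose, 2 fell and 4 did not pass (median log2 fold change 0.04). RAB14, the most abundant of them per kb, was at 145, 157 and 147 CPM in Yes WT and 149.9, 154 and 158 CPM in Yes T348I and did not pass (edgeR adjusted p = 0.38). RAB11A, the main RAB of slow recycling, was likewise not called, at -0.04, and RAB11B fell by 0.15 (edgeR adjusted p = 0.010), a call lost without Yes T348I replicate 2 (adjusted p = 0.19). RAB35 (ENSG00000111737.11, GRCh38 chromosome 12, 120095095 to 120117502), a RAB of fast recycling and cytokinesis, was at 61.9, 57.03 and 64.3 CPM in Yes WT and 78.5, 76.8 and 80.7 CPM in Yes T348I. All Yes T348I libraries exceeded all Yes WT libraries, and RAB35 rose by 0.36 on the log2 scale (SE 0.05, edgeR adjusted p = 8.86e-09). RAB4B (ENSG00000167578.17, GRCh38 chromosome 19, 40778216 to 40796938), also of fast recycling, was at 3.91, 4.29 and 3.88 CPM in Yes WT and 2.51, 2.06 and 2.12 CPM in Yes T348I, apart in every library, and fell by 0.83 on the log2 scale (SE 0.17, edgeR adjusted p = 8.85e-05). Since 25.7% and 27.4% of its exon bases are shared with the readthrough genes MIA-RAB4B and RAB4B-EGLN2, its level is uncertain.

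RABs of epithelial and polarised transport held the most extreme member. Of 6 genes 5 were tested, with 2 higher and 2 lower (median log2 fold change 0.07). RAB17 (ENSG00000124839.12, GRCh38 chromosome 2, 237574322 to 237601614), a RAB of apical recycling and transcytosis found mainly in epithelial cells, had 38, 36 and 37 reads in Yes WT and 7, 10 and 7 in Yes T348I. This is 2.32, 2.49 and 2.47 CPM in Yes WT and 0.359, 0.686 and 0.494 CPM in Yes T348I, with no overlap. RAB17 fell by 2.27 on the log2 scale (SE 0.29, edgeR adjusted p = 7.87e-09), a 4.81-fold lower level, and its call held in all 14 alternatives. RAB25, the other epithelium-specific member, had at most 2 reads in any library. Both groups were at or under the level of 3 reads (0.153 to 0.209 CPM depending on the library), and no difference was detectable at this depth.

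The other members of the set were abundant. RAB8A (ENSG00000167461.11, GRCh38 chromosome 19, 16111629 to 16134234), which carries vesicles to the plasma membrane and the primary cilium, was at 68.3, 67.5 and 69.95 CPM in Yes WT and 95.3, 99.5 and 100.3 CPM in Yes T348I. The groups are far apart, and RAB8A rose by 0.52 on the log2 scale (SE 0.04, edgeR adjusted p = 6.45e-14). RAB8B rose by 0.20, a call lost without Yes WT replicate 2. RAB10, a RAB of basolateral and GLUT4 transport, did not pass (log2 fold change 0.07, SE 0.03, edgeR adjusted p = 0.078), but was called higher with no low-count filter and without Yes T348I replicate 1 (adjusted p of 0.026 and 0.0087). RAB13 (ENSG00000143545.8, GRCh38 chromosome 1, 153981617 to 153986358), a RAB of tight junctions, was at 196, 199 and 198 CPM in Yes WT and 162, 164 and 153 CPM in Yes T348I. It fell by 0.30 on the log2 scale (SE 0.04, edgeR adjusted p = 9.11e-10), with all Yes T348I libraries lower. Of its exon bases 24.8% are shared with another gene of the same strand, so its level carries that uncertainty.

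Epithelial and mesenchymal markers were listed beside RAB17. Of 12 epithelial markers 8 were tested, with 1 higher and 2 lower. CDH1, which encodes E-cadherin, was at 2.99, 3.11 and 3.95 CPM in Yes WT and 1.64, 1.65 and 1.13 CPM in Yes T348I and fell by 1.16 on the log2 scale (SE 0.21, edgeR adjusted p = 8.47e-06). The epithelial splicing factor gene ESRP1 went from 0.983 ± 0.261 to 0.364 ± 0.0931 CPM (SD, n = 3 each) and fell by 1.46 on the log2 scale (SE 0.39, edgeR adjusted p = 0.0016), while its paralog ESRP2 rose by 0.58. GRHL2 was at 0 in all libraries, and the 12 markers summed to 460 to 479 CPM in Yes WT and 455 to 496 CPM in Yes T348I, mostly from KRT8 and KRT18. Of 8 mesenchymal markers 6 were higher and 2 lower, and their sum was 7288 to 7335 CPM in Yes WT and 7585 to 7921 CPM in Yes T348I. Both lists stand against 28.0% of all genes tested called higher and 27.3% lower. Among all genes at 50 CPM or more 73.1% were called in either direction. The zinc finger repressor genes SNAI2, ZEB1 and ZEB2 rose by 1.45, 0.32 and 0.38 on the log2 scale. TWIST1, another repressor gene of the list, fell by 0.46 (edgeR adjusted p = 0.0022) and the fibronectin gene FN1 by 0.39 (edgeR adjusted p = 1.26e-13). The part of these markers in the fall of RAB17 was not tested.

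Promoters were searched on both strands for 3 motifs. The E-box searched was CAGGTG, which reads CACCTG on the opposite strand and is known as a binding motif of ZEB and SNAIL repressors. The TEAD motif was GGAATG, which reads CATTCC on the opposite strand. The AP-1 motif was TGANTCA. Their matches do not overlap each other in the promoters shown. The window was the 250 bases before each RefSeq start (GRCh38.p14), and 50 of the 63 RAB genes, with 71 starts, had an entry. E-box letters stood in 17.5% of all 35116 starts and in 15.5% of the RAB starts, TEAD letters in 11.9% and 8.45%, and AP-1 letters in 6.57% and 8.45%. RAB17 had 3 E-box matches, where 0.464% of all starts had at least 3, and no other RAB start had more than 2. That share is per start, while RAB17 was the highest of 71 RAB starts, so it does not measure how unusual RAB17 is. The 3 promoters below run 5′ to 3′ on the strand of their gene and were picked after the values were seen. RAB17 holds the most E-box matches among RAB starts and fell most, RAB3B holds an E-box too and rose, and RAB13 holds the most AP-1 matches and fell. RAB13 has 2 starts in the table, and the other, whose window is chr1:153986340-153986589, has 0 matches to any of the motifs. Each start lies inside the span of its gene in GENCODE. Capitals mark matches.
RAB17 (chr2:237590735-237590984, minus strand): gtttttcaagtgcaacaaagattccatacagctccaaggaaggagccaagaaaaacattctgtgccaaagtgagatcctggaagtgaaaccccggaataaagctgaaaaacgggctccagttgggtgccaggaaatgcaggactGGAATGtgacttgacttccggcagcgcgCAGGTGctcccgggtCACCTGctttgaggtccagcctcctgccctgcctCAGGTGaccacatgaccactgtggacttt
RAB3B (chr1:51990701-51990950, minus strand): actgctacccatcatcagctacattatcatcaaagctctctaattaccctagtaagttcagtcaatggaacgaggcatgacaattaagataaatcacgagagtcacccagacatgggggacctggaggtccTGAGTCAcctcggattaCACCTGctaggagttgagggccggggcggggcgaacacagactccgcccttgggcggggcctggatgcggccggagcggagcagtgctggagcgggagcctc
RAB13 (chr1:153985394-153985643, minus strand): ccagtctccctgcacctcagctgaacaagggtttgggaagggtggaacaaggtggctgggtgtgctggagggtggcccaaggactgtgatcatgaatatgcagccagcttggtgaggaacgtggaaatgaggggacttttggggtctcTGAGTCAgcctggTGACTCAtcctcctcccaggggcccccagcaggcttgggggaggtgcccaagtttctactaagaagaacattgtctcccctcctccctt
In RAB17 the TEAD letters begin 106 bases before the start and the E-boxes 78, 63 and 29 bases before it. In RAB3B the AP-1 letters begin 119 and the E-box 102 bases before the start, and in RAB13 the AP-1 letters begin 102 and 89 bases before it. The letters thus stand before genes that fell and genes that rose, and a match does not show that a factor binds.

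Of the 6 genes with ciliary or other roles 5 were tested, and 2 rose and 2 fell. RAB23, a regulator of Hedgehog signalling at the cilium and the most abundant of these per kb, was at 40.1, 43.3 and 43.9 CPM in Yes WT and 48.8, 52.3 and 52.6 CPM in Yes T348I and rose by 0.27 on the log2 scale (SE 0.05, edgeR adjusted p = 2.95e-05). RAB28, another ciliary RAB, rose by 0.33 on the log2 scale. RAB40B (ENSG00000141542.10, GRCh38 chromosome 17, 82654973 to 82698728), a RAB with a SOCS box that joins a ubiquitin ligase, was at 20.96, 19.2 and 23.3 CPM in Yes WT and 14.97, 13.6 and 13.2 CPM in Yes T348I. The groups do not overlap, and RAB40B fell by 0.59 on the log2 scale (SE 0.08, edgeR adjusted p = 4.49e-08), which at 1.51-fold lies just past the minimum of 1.5-fold. Its paralog RAB40C fell by 0.26 (edgeR adjusted p = 0.013), a call lost with DESeq2 and without Yes WT replicate 1 or Yes T348I replicate 2 (adjusted p up to 0.098).

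The remaining 13 RAB genes (RAB3C, RAB6C, RAB6D, RAB7B, RAB19, RAB25, RAB26, RAB36, RAB37, RAB38, RAB40A, RAB41 and RAB44) had at most 18 reads in any library and were not tested. RAB36 and RAB44 had none, which allows up to 0.153 to 0.209 CPM per library (3 reads, counting error only). RAB37, of secretory granules, had 18, 6 and 14 reads in Yes WT and 2, 3 and 4 in Yes T348I. RAB6C, a retrocopy of RAB6A, had 4, 4 and 8 reads in Yes WT and 13, 12 and 14 in Yes T348I. In both the groups of libraries do not overlap, and both were singled out after their values were seen. RAB6C is nearly identical to RAB6A in sequence, so its few reads are uncertain.

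Paralogs with shared roles were set against each other by the share of a pair's level per kb that 1 member took. Of 17 such pairs, some of which have a gene in common, 11 had groups of libraries that did not overlap, where 59.5% of all single genes tested did not overlap. With 3 libraries against 3 the exact 2-sided permutation test cannot go below p = 0.1, which these 11 reached, and adjusted over the 17 pairs this is 0.155, so none passed 0.05. RAB22A took 36.8, 34.6 and 36.2% in Yes WT and 44.6, 43.9 and 45.2% in Yes T348I of the sum of RAB22A and RAB31. RAB5A took 52.2, 54.9 and 51.8% in Yes WT and 60.1, 62.4 and 60.01% in Yes T348I of the sum with RAB5B. These were shifts of 8.70 and 7.89 percentage points. The RAB2A share of RAB2A and RAB2B was 72.8, 72.03 and 72.7% in Yes WT and 77.6, 76.96 and 78.5% in Yes T348I. In contrast, RAB1A held 39.9, 40.1 and 40.9% in Yes WT and 38.6, 40.4 and 41.01% in Yes T348I of the sum with RAB1B, an overlap with an exact permutation p = 0.90. The RAB11A share also overlapped, with RAB11A and RAB11B at near equal levels in both groups.

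**Figure D4:**
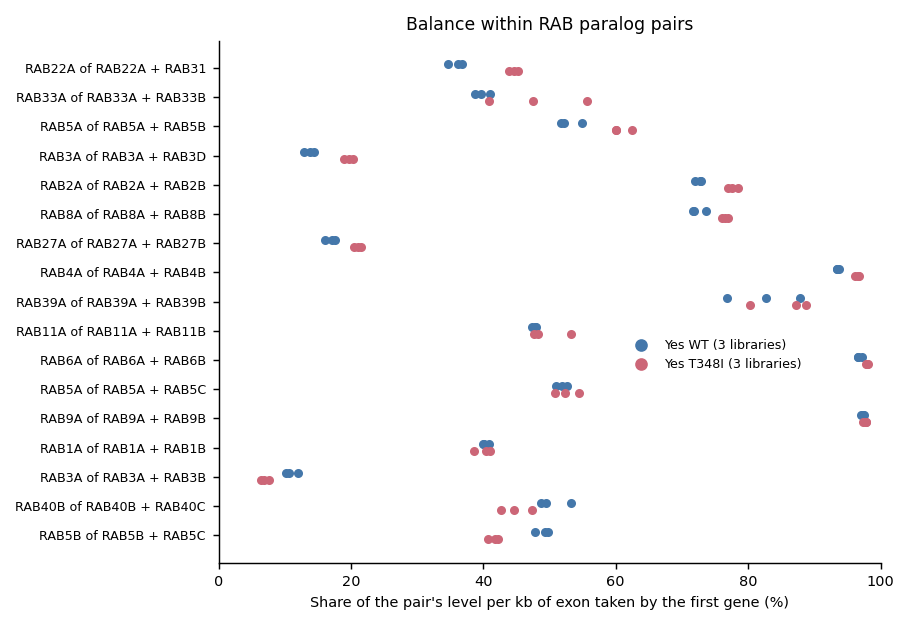
Share of each pair's summed level per kb taken by the first-named gene (horizontal axis, percent) in the 3 Yes WT and 3 Yes T348I libraries, for 17 paralog pairs ordered by the difference. Points of the 2 groups are separate in 11 pairs, among them RAB22A with RAB31, and mixed in 6, among them RAB1A with RAB1B.

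The proteins that load, switch and read RABs were taken from 6 lists of 180 genes. Of the 174 that were tested 35 were higher and 61 lower, against 28.0% and 27.3% of all genes, with a median log2 fold change of -0.06. The split depended on the scaling, at 23 higher and 74 lower with upper quartile factors and 22 and 68 with library size only. Of 10 factors of RAB delivery and prenylation 5 rose and 2 fell. CHML, an escort protein that presents RABs for prenylation, was at 172, 172 and 171 CPM in Yes WT and 216, 241 and 233 CPM in Yes T348I and rose by 0.42 on the log2 scale (SE 0.04, edgeR adjusted p = 5.42e-13). GDI2, a GDP dissociation inhibitor, and RABGGTB, a subunit of the prenylating enzyme, rose by 0.21 and 0.27, while the RAB acceptor gene RABAC1 fell by 0.42.

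Among 50 tested exchange factor genes 8 rose and 17 fell, a called share of 50% against 55.3% of all genes. DENND4C and DENND4A, which encode exchange factors of RAB10, fell by 0.59 and 0.59 in log2 terms, while the RAB10 transcript did not pass. The related DENND4B of this list, at a mean of 67.2 CPM, did not pass either (log2 fold change 0.03, edgeR adjusted p = 0.66). DENND2A, an exchange factor of RAB9, and ANKRD27, one of RAB21, rose by 0.50 and 0.45. Of 35 GTPase-activating protein genes 7 rose and 11 fell, a called share of 51.4%. TBC1D8 was at 190.4, 183 and 188 CPM in Yes WT and 96.3, 95.9 and 89.3 CPM in Yes T348I and fell by 0.99 on the log2 scale (SE 0.04, edgeR adjusted p = 1.51e-24), the lowest adjusted p of all these lists. TBC1D17 fell by 0.78, and TBC1D12 and TBC1D2B rose by 0.57 and 0.43.

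In each of the 3 effector lists more genes were lower than higher in Yes T348I. In the order below 69.0%, 51.9% and 52.2% of their tested genes were called, against 55.3% of all genes. Falls made up 44.8%, 37.0% and 34.8%, against 27.3% of all genes. Rises made up 24.1%, 14.8% and 17.4%, against 28.0%. Of 29 tested effectors of secretion and the Golgi 7 rose and 13 fell. Besides MLPH, the RAB1 effector gene GOLGA2 (GM130) fell by 0.29 and the RAB6 effector gene BICD1 by 0.39, and the RAB9 effector gene RABEPK rose by 0.44. BICD2, the relative of BICD1 in this list, rose by 0.17 (edgeR adjusted p = 4.17e-04) and was more abundant, with a mean of 99.5 CPM against 42.1 CPM. Of 27 effectors of endosomes and lysosomes 4 rose and 10 fell. EEA1, the RAB5-binding tether of early endosomes, was at 59.6, 56.3 and 61.7 CPM in Yes WT and 74.4, 81.5 and 83.4 CPM in Yes T348I and rose by 0.42 on the log2 scale (SE 0.05, edgeR adjusted p = 5.30e-10). VPS39, VPS41 and VPS18, subunits of the tethering complex that acts with RAB7, fell by 0.39, 0.27 and 0.35. Of 23 effectors of recycling and polarity 4 rose and 8 fell. EHD1, an ATPase of recycling endosomes, rose by 0.37, and EHBP1L1 and MICAL1, which bind RAB8 relatives, fell by 0.33 and 0.43. RAB11FIP4, a RAB11 effector gene, went from 5.59 ± 1.17 to 2.20 ± 0.250 CPM (SD, n = 3 each) and fell by 1.32 on the log2 scale (SE 0.17, edgeR adjusted p = 1.90e-08).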

How the data were processed

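For each of the 6 libraries of SNU-449 cells (3 Yes WT, 3 Yes T348I; stranded, polyA-selected) the authors deposited a file of raw gene counts. STAR 2.5.1b, Trimmomatic 0.35, CASAVA 1.8.2 and GRCh38 are listed in the submitters' processing notes, with no role for each. Which annotation release was used is not given. Analysis took the reverse-strand counts (column 4), since forward-strand counts came to only 6.13% to 6.59% of them. Symbols came from a table of gene names, and biotypes, positions and exon lengths from GENCODE release 29 (GRCh38).

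With edgeR 4.0.16 in R 4.3.3, filterByExpr (minimum count 10) kept 14723 genes, TMM scaled the libraries, and a quasi-likelihood F-test compared the groups without covariates. Benjamini-Hochberg adjustment ran over these 14723 genes, and an adjusted p under 0.05 made a call. The procedure was also run on simulated counts in which few genes changed. In these data 55.3% were called, so that run does not check the scaling used here. SE is the standard error of the log2 fold change. Paralog shares were compared by an exact permutation test.

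The members and lists were chosen with earlier results of these data known. Every member may be named. Those called with a change of at least 1.5-fold, and in each role the most abundant per kb and the one with the lowest adjusted p, are given in every library. Of each regulator list up to 4 genes with the lowest adjusted p are named, and further genes are named outside this rule. Alternatives used DESeq2 1.42.0, limma 3.58.1 (voom), other scalings, no filter, unstranded counts (column 2), the replicate number as a block, and each library left out.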

Additional observations from a re-analysis of the deposited data

How the results depend on the processing

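Of the 32 RAB genes called, 21 kept their direction and call in all 14 alternatives, 8 higher and 13 lower, and none of the 32 changed sign in any. Across the alternatives 10 to 15 RAB genes were higher and 16 to 21 lower. Calls were gained by RAB1B, RAB4A and RAB6A with unstranded counts, by RAB10 with no low-count filter or without Yes T348I replicate 1, by RAB11A with upper quartile factors and by RAB34 without Yes T348I replicate 2. DESeq2 ended the calls of RAB5A, RAB27A, RAB40C, RAB12, RAB9B and RAB33A. No RAB gene rose at least 1.5-fold as reported, but 1 did with no low-count filter (RAB6C) and 1 with unstranded counts (RAB8A), and 0 to 1 when a library was left out (RAB33A, omitting replicate 2 of either group, or RAB6C, omitting Yes WT replicate 3 or Yes T348I replicate 1). Falls of at least 1.5-fold numbered 6 to 10. RAB40B left this set with no low-count filter and without Yes WT replicate 3, Yes T348I replicate 2 or Yes T348I replicate 3. RAB24 left it without Yes T348I replicate 3. RAB17, RAB43, RAB3D, RAB4B and RAB31 stayed in it in all 14 alternatives. Regulators and effectors higher in Yes T348I numbered 22 with DESeq2, 23 with upper quartile factors and 22 with library size only. Signs changed only for genes that were not called. RAB14 was at -0.00079 with upper quartile factors. With single libraries left out RAB33B ranged from -0.027 to 0.13, RAB39B from -0.27 to 0.21 and RAB1B from -0.049 to 0.021. Negative values of RAB33B came without Yes WT replicate 1 (-0.016) or Yes T348I replicate 2. Positive values of RAB1B came with no low-count filter (0.014) and when Yes WT replicate 2 (0.018), Yes T348I replicate 2 or Yes T348I replicate 3 (0.0065) was omitted. The cause was not tested.

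Samples with the same replicate number showed no sign of deviating together (correlations of -0.028, 0.0014 and -0.019 for numbers 1 to 3). These correlations run over all genes tested, those of few reads included, so they cannot exclude a pairing. With the number as a replicate block 13 RAB genes were higher and 19 lower, the same 32, and 4054 and 3936 of all genes. RAB genes of few reads, RAB17 among them, rest on counts that limit their precision.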
